A study of Mus musculus with 6 samples.

Results

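Trim15 and 4 related genes of the tripartite motif (TRIM) family were followed in the bone marrow of erythropoietin-deficient mice: Trim10 and Trim26, which flank Trim15 on chromosome 17, Trim39 on the same chromosome, and Trim58 on chromosome 11. A probe belonged to the set when its RefSeq accession mapped to 1 of these 5 genes, among 18217 genes named on the array. This gave 8 of 41174 gene probes (0.0194%), namely 1 for Trim15, 1 for Trim10, 3 for Trim26 and 3 for Trim39. No probe was matched to Trim58, and its transcript was therefore not analysed here. The genes were chosen on earlier results of these data, because Trim15 differed between the treated and control arrays, so the treated against control values of the set are given as a description without a test.

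Marrow cells had been collected from femurs of ISAM mice, whose genotype is given as Epo-/-::3.3K-Epo3'-Tg458 on a Mixed strain. These animals lack the endogenous erythropoietin gene and live on an erythropoietin transgene that is known to act in the newborn but to leave the adult anemic, and all arms shared that genotype. All were male and 10 weeks old. The 3 rHuEPO samples were taken 6 h after recombinant human erythropoietin at 3000 U/kg was given into the peritoneal cavity, and the 3 controls were 1 untreated sample and 2 taken 6 h after phosphate-buffered saline (PBS). Replicates are numbered but no separate animals are named, and a p-value here reflects the spread among these arrays only, which may be technical. Wild-type marrow and other time points were not analysed here. In whole marrow, a transcript present in fewer cells and a transcript at a lower level per cell cannot be told apart.

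TRIM proteins carry a RING finger, B-box zinc fingers and a coiled coil, and most act as E3 ubiquitin ligases, which attach ubiquitin to a partner protein. Several belong to red cell formation. Trim10, first described as an erythroid RING finger protein, takes part in terminal erythroid differentiation, and Trim58 is an erythroblast ligase that marks the motor protein dynein for degradation and is linked to the loss of the nucleus. Trim15 is known as a component of focal adhesions, Trim26 as a regulator of antiviral signalling, and Trim39 as a ligase that acts on regulators of apoptosis and the cell cycle. Erythropoietin itself signals through its receptor to the transcription factor STAT5, which binds DNA at a palindrome written TTCNNNGAA.

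Each sample was hybridised to 1 one-colour Agilent array. The array's 75th percentile signal was 220.7 to 264, and levels below are log2 processed signals relative to that percentile. The scanner software called 48.6% to 50.5% of gene spots well above background on the controls and 46.2% to 46.6% after rHuEPO. The untreated sample and rHuEPO replicate 1 were on slide 1, and the other 4 arrays on slide 2. As a check of the labelled tissue, 20 of the 21 erythroid genes with a probe were well above background on all 6 arrays, and Kel, a blood group gene, was too dim to test. Marker lists of 6 other cell classes, 44 of 48 genes tested, had 0 calls between the arms (0.0803% of all tested genes were called), and the summed levels of each list overlapped between the arms. In 2 of 8 monocyte and macrophage genes and 2 of 7 T and NK cell genes every rHuEPO array stood above every control. These are larger shares than the 5.86% of all genes, and their part in the results was not tested. The fit across all probes took the 19590 probes that stood clear of background on 3 or more of the 6 arrays, and 7 of the 8 TRIM probes were among them.

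Trim15 and Trim10 lie head to head. Their annotated starts are 2364 bases apart (2387 from the other Trim15 start), with Trim15 on the minus strand and Trim10 on the plus strand. The 250 bases before each start are shown because the pair shares the interval between the starts. Sequences are from RefSeq, build GRCm38.p6, written 5' to 3' on the gene's own strand. Capitals mark TTCNNNGAA in Trim15 (chr17:36867211-36867460, minus strand) and a GATA motif in Trim10 (chr17:36869324-36869573, plus strand).
Trim15: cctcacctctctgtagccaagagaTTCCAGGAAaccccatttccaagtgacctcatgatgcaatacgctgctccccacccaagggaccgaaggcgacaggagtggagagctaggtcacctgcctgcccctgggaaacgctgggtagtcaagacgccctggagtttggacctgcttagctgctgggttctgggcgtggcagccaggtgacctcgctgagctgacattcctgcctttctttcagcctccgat
Trim10: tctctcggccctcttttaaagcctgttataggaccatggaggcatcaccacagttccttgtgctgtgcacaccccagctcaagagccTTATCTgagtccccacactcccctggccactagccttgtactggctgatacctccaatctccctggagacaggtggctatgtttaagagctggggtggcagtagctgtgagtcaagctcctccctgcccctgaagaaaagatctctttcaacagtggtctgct

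The STAT5 palindrome of Trim15 reads TTCCAGGAA and spans bases -226 to -218 from its first start (-249 to -241 from the second). TTCNNNGAA, which reads as the same motif on both strands, was in 7.0% of 32851 upstream windows of the same 250-base length, and in 8.1% of the 27025 genes these belong to. Of the 10 named genes called in the fit across all probes, 8 had an upstream sequence here, and 2 of these held the palindrome, Trim15 and Urah. Of the other motifs spelled out with Trim10 and Trim26, a GATA motif was in 1 of the 8 (29.7% of genes) and the interferon response motif in 0 (3.5%). Urah encodes an enzyme of urate breakdown. The 2 sites are shown side by side with their flanks, the motif in capitals (Trim15 chr17:36867419-36867445, minus strand; Urah chr7:140835047-140835073, plus strand).
Trim15: gccaagagaTTCCAGGAAaccccattt
Urah: aaggtgtctTTCCCAGAAgtgttcaga

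A GATA motif (AGATAA with A or T as its first letter and A or G as its last, either strand) was in 26.5% of the windows. In Trim10 it read TTATCT at -163 to -158, the reverse complement of AGATAA. Trim58 held AGATAG at -247 to -242 (chr11:58640215-58640232, plus strand), and the Trim15 window held no GATA match. GATA1 is the master regulator of erythroid genes, and these erythroid TRIM genes are shown for that reason. An interferon response motif, GAAANNGAAA on either strand, was in 3.0% of the windows. Trim26 held 2 matches to it that overlap one another, at -160 to -151 and -154 to -145. They are printed in turn as chr17:36836977-36837004 and chr17:36836983-36837010 on the plus strand. The CCNCNCCC motif of KLF factors, in 45.9% of the windows, occurred in 2 places in Trim15 and in 8 of the 8 called genes with a sequence (48.5% of genes). No Trim39 window matched any of the 4 motifs. A match in these letters is a description of the sequence and was not tested for binding.
Trim58: taaAGATAGggaaggaaa
Trim26: cgcttccgaTTTCACTTTCcttttctcg
Trim26: cgatttcacTTTCCTTTTCtcgggcccg

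Trim15 was read by 1 probe, A_52_P233342. Its processed signal was 5.74 on the untreated array, 3.30 and 3.76 on the PBS arrays, and 36.0, 53.8 and 49.1 on the rHuEPO arrays. All 3 rHuEPO readings stood above all 3 control readings. The software called the probe well above background on 3 of 3 rHuEPO arrays and 0 of 3 control arrays, so only a bound holds for the controls.

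The scanner's own error put a scale on these readings. It was 6.37, 7.10 and 6.67 signal units on the rHuEPO arrays, well under the signal there. On the PBS arrays it was 3.29 and 3.74, close to the signal itself. The PBS readings were not called positive and significant, and such spots carried a processed signal within 1% of the error in 100% of cases on every array. They therefore stand in for a level that was not measured, while the untreated reading was called positive and significant. Negative control spots, designed to match no transcript, gave a second scale. Of 153 negative control spots per array, 96.7% lay below Trim15 on the untreated array and 0.7% and 15% on the PBS arrays. On the rHuEPO arrays 99.3%, 98.7% and 99.3% lay below it. The median of these spots was 3.74 to 4.03 in the controls and 4.73 to 5.51 after rHuEPO, so they read slightly higher in the treated arm. Whether signals this low reflect background or the scanner's error was not tested. The part of this offset in the Trim15 readings was not tested.

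**Figure D1:**
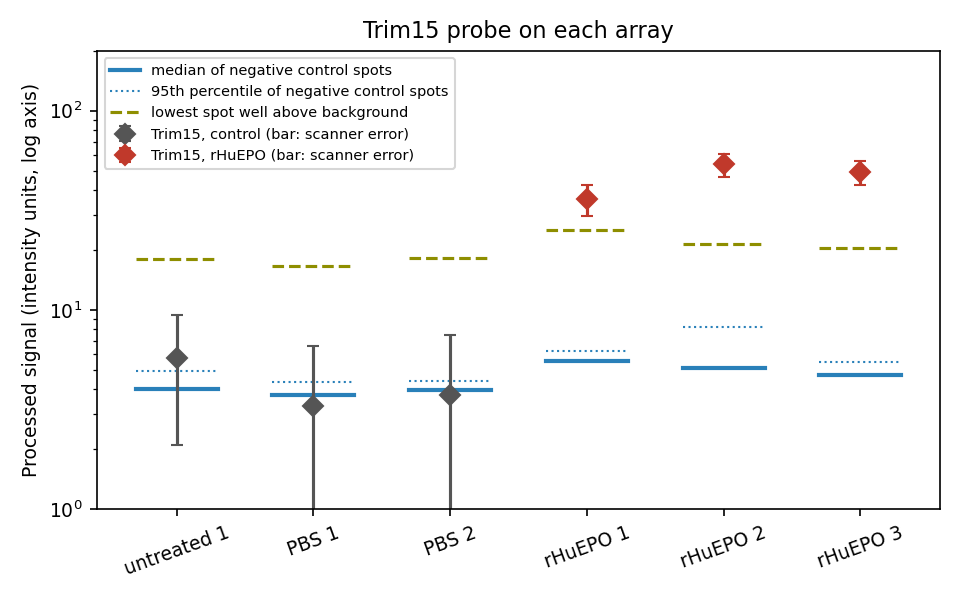
Processed signal of the Trim15 probe on each of the 6 arrays (log axis, intensity units), with the scanner's error as bars, beside the median and 95th percentile of 153 negative control spots and the lowest spot called well above background on that array. The rHuEPO readings (36.0 to 53.8) lie above the lowest well-above-background spot of their array (20.4 to 25.3), and the control readings (3.30 to 5.74) lie below theirs (16.7 to 18.3), with error bars on the PBS arrays that run off the lower end of the axis.

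On the log2 scale relative to the array's 75th percentile, Trim15 stood at -5.49 on the untreated array and at -6.06 and -6.03 on the PBS arrays. The rHuEPO arrays read -2.88, -2.26 and -2.20. The arm means were -2.45 (SD 0.37, n = 3) for rHuEPO and -5.86 (SD 0.32, n = 3) for control, a difference of 3.41 ± 0.26 (SE) that takes the dim readings at face value. Set against the lowest signal called well above background on each control array, Trim15 was at least 2.51-fold higher after rHuEPO, a bound of 1.33 on the log2 scale. The face-value difference was 2.61 within slide 1, where 1 rHuEPO array faced the untreated one, and 3.81 within slide 2, where 2 faced the PBS pair. Against PBS alone it was 3.60 ± 0.27. The lowest of the rHuEPO readings and the highest of the controls were both on slide 1.

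Over all 19590 probes limma called 11 between the arms (0.0562%, Benjamini-Hochberg adjustment, threshold 0.05), and 13 with slide as a block (0.0664%). All 11 were higher after rHuEPO, 886 probes (4.52%) had an unadjusted p under 0.05, and leaving out each array in turn left 2 to 7 calls. Trim15 is 1 of the 11, but it was chosen on this contrast, so its listing is no test of it and nothing is read from it. That listing was lost without PBS replicate 1 or 2 or without rHuEPO replicate 2 or 3. Probes called well above background on every rHuEPO array and on 0 of the 3 control arrays were 13 of 41157 (0.0316%). Trim15 was 1 of these 13, and only bounds hold for them. Erfe, which encodes the erythroblast hormone erythroferrone, was at least 24.1-fold higher, Urah at least 5.75-fold and Serpina3n, a serine protease inhibitor gene, at least 3.37-fold. The bound for Trim15, 2.51-fold, was lower than each of these. It was higher than those of Rgs16 (2.21-fold), Tmem37 (1.81-fold), Hpdl (1.75-fold) and Aqp3 (1.66-fold), among others. A bound gives no order of the true differences. A different background correction, normexp with an offset of 50, left the Trim15 difference at 0.63 in the same direction, and that offset is itself of the size of the brightest Trim15 signals.

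The contrasts that played no part in choosing the genes were between untreated and PBS marrow and between slides. The untreated array was on slide 1 and both PBS arrays were on slide 2. The fit of untreated against PBS had no slide term, so for every probe its difference cannot be told apart from slide and scan run. Untreated minus PBS was 0.56 ± 0.36 for Trim15 (1 against 2 arrays, limma adjusted p = 0.668), where 0 of 19590 probes passed (0%) and 1050 (5.36%) had an unadjusted p under 0.05. Slide 2 minus slide 1 was 0.043 ± 0.27 (limma adjusted p = 0.924), where 2901 probes passed (14.8%). Both rest at least in part on control readings of Trim15 that were not well above background. They therefore cannot show whether Trim15 differed there. The untreated reading stood above both PBS readings, and 1 untreated array gives no spread of its own.

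Trim10, the erythroid RING finger gene that faces Trim15, was bright on every array. Its probe A_51_P417891 read 3660 on the untreated array, 1870 and 3610 on the PBS arrays, and 5010, 3300 and 2970 on the rHuEPO arrays. The arms overlapped, the lowest reading being PBS replicate 1 and the highest rHuEPO replicate 1. The rHuEPO minus control difference was 0.28 ± 0.28 (SE), 0.41 within slide 1 and 0.21 within slide 2. Without PBS replicate 1 it was 0.022, and with arrays weighted by their quality 0.005. Of these head-to-head neighbours, Trim15 had arms that did not overlap and Trim10 had arms that did, and the difference between the genes was not tested. Trim15 was chosen on this contrast, and most probes overlap as Trim10 does. Only 4.97% of all tested probes separated higher and 4.86% lower. The difference of 0.35 ± 0.43 between untreated and PBS (limma adjusted p = 0.765) and of -0.45 ± 0.24 between slide 2 and slide 1 (limma adjusted p = 0.229) did not pass.

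Trim26, which flanks Trim15 on the other side with its start 30064 bases away, had 3 probes. Probe A_52_P353031 read 1850 untreated, 1430 and 2450 with PBS, and 2110, 2110 and 1940 with rHuEPO. The rHuEPO readings lay inside the control range, with a difference of 0.087 ± 0.21 that ran from -0.066 to 0.272 over the alternatives. Probe A_52_P353038 read 288 untreated, 126 and 205 with PBS, and 334, 273 and 167 with rHuEPO. These arms overlapped as well, with a difference of 0.29 ± 0.31 that was 0.042 without PBS replicate 1. The third probe, A_51_P349532, read 27.2 untreated, 9.68 and 11.2 with PBS, and 26.1, 8.71 and 14.6 with rHuEPO. It was well above background on the untreated array alone and was left out of the fit. Untreated minus PBS was -0.17 ± 0.33 and 0.69 ± 0.41 for the first and second probe (limma adjusted p = 0.855 and 0.668).

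Trim39, 11 protein-coding genes from Trim15, also had 3 probes, each well above background on all 6 arrays. Probe A_51_P468126 read 183 untreated, 138 and 183 with PBS, and 178, 193 and 155 with rHuEPO, a difference of 0.019 ± 0.17. Its readings were the most even of the set, spanning 0.25 on the log2 scale over the 6 arrays. Probe A_52_P657286 read 67.0 untreated, 54.0 and 44.5 with PBS, and 88.5, 58.1 and 92.6 with rHuEPO. Here 2 rHuEPO arrays stood above every control and the third did not, and the difference was 0.47 ± 0.27. Probe A_52_P403582 read 63.9 untreated, 39.9 and 35.0 with PBS, and 61.9, 35.7 and 33.6 with rHuEPO, a difference of -0.14 ± 0.29. The first and last of these changed sign among the alternatives (-0.053 to 0.092 and -0.373 to 0.073), and none of the 3 had arms that separated. Over all tested probes 4.97% had every rHuEPO array above every control and 4.86% had every one below.

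The last of these Trim39 probes read higher on slide 1 than on slide 2. The readings on slide 1 were 63.9 and 61.9, and the 4 on slide 2 ran from 33.6 to 39.9. Slide 2 minus slide 1 was -0.67 ± 0.15 (limma adjusted p = 0.0402). This was the only 1 of the 7 tested TRIM probes past that test, where 14.8% of all probes passed. A count of 1 in 7 is near that share, so nothing particular to this probe is read from it. The call was lost without the untreated array, without PBS replicate 2 or without any 1 of the rHuEPO arrays (limma adjusted p = 0.0542 to 0.292), and with quantile scaling, median scaling, normexp or no filter on dim probes (0.0511 to 0.27). The other Trim39 probes differed between slides by 0.018 ± 0.14 and -0.22 ± 0.27 (limma adjusted p = 0.943 and 0.588). Slide and scan run fell together and cannot be told apart. For Trim26 the slide differences were 0.12 ± 0.20 and -0.60 ± 0.23 (limma adjusted p = 0.704 and 0.117).

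**Figure D2:**
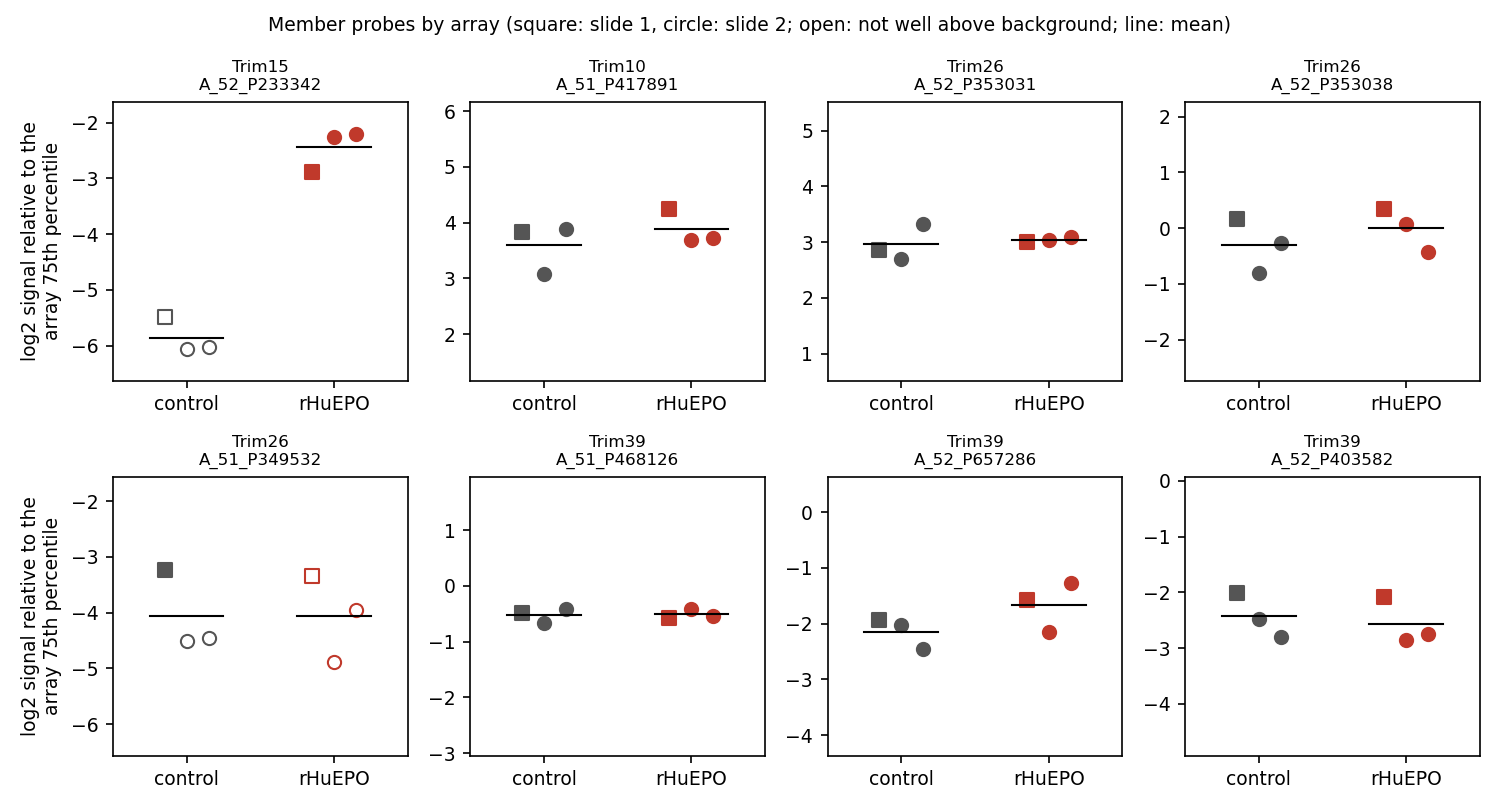
Each of the 8 TRIM probes by arm, as log2 signal relative to the array's 75th percentile, with squares for slide 1, circles for slide 2, open marks where the probe was not well above background and a line at the arm mean of 3 arrays. Trim15, which was chosen on this contrast, alone separates the arms. In the last Trim39 panel (A_52_P403582) the slide 1 squares stand above the slide 2 circles in both arms.

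The genes around Trim15 were mostly too dim to compare on these arrays. Of the 10 protein-coding genes on each side, 18 lie outside the set, and 3 of these could be tested, while 11 were too dim and 4 lacked a matched probe. The 9 genes beyond Trim26 are H2-M genes, which encode nonclassical class I histocompatibility molecules, and 8 were too dim and 1 had no probe. On the Trim10 side Trim31 was too dim and Trim40 had no probe, so Trim26 and Trim10 were the only other TRIM genes compared within these 10 places. The measured neighbours were Ppp1r11, an inhibitor of protein phosphatase 1, at 0.09 ± 0.20, Znrd1, a subunit of RNA polymerase I, at -0.02 ± 0.22, and Znrd1as beside it at 0.02 ± 0.20. Their arms overlapped in all 3 cases. Among the measured genes within 10 places of Trim15, no other had arms that separated. Over all tested genes only 5.86% separated higher and 4.18% lower, so these few neighbours cannot show whether separation is particular to Trim15.

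**Figure D3:**
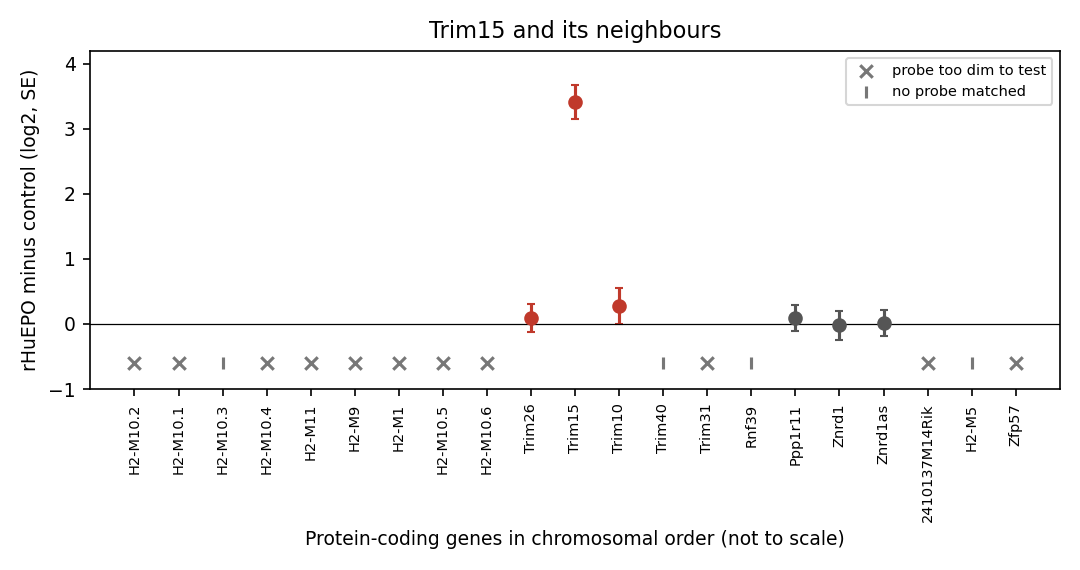
Difference between rHuEPO and control (log2, with SE, 3 against 3 arrays) for Trim15 and the 10 protein-coding genes on each side, in chromosomal order and not to scale; crosses mark probes too dim to test and ticks genes with no matched probe. Trim15 stands at 3.41, and the 5 other measured genes (Trim26, Trim10, Ppp1r11, Znrd1 and Znrd1as) lie between -0.02 and 0.28.

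The rest of the TRIM family gave the wider view. Of 64 other TRIM genes, 31 could be tested, 18 were below the signal filter and 15 lacked a matched probe. None was called (0 of 31, against 0.0803% of all 11211 tested genes), 13 of the 31 had a difference above 0 (51.2% of all genes did), and the median was -0.027, beside 0.006 for all genes. Without rHuEPO replicate 1 the median was 0.078. All but 1 lay between -0.5 and 0.5. The exception, Trim59, read 1.03 ± 0.83 and ranged widely among the controls, from -3.85 on the untreated array to -1.15 and -0.55 with PBS.

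The other TRIM genes with the smallest p did not pass either. Trim27, a ubiquitin ligase, read -0.19 on the untreated array, -0.56 and -0.40 with PBS, and 0.27, -0.20 and 0.07 with rHuEPO. Its difference was 0.43 ± 0.20 (limma adjusted p = 1). Trim24, a cofactor of nuclear receptors, read 1.74 untreated, 1.54 and 1.91 with PBS, and 1.28, 1.44 and 1.39 with rHuEPO, a difference of -0.36 ± 0.18. Trim21, a cytosolic receptor for antibodies, read 0.05 untreated, 0.10 and 0.15 with PBS, and 0.24, 0.57 and 0.35 with rHuEPO, a difference of 0.29 ± 0.17. The arms of Trim24 and Trim21 did not overlap, 1 lower and 1 higher of 31, where 4.18% and 5.86% of all genes did so.

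TRIM genes that interferon is known to induce were listed apart. Of 12 such genes 10 were tested, and 0 were called, where 0.0803% of all genes were. Of the 10, 6 were above 0 (51.2% of all genes were), and the median was 0.016, beside 0.006 for all genes. Besides Trim21 the smallest p belonged to Trim12c at -0.22 ± 0.21 and to Trim25, which activates the RNA sensor RIG-I, at 0.12 ± 0.17.

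**Figure D4:**
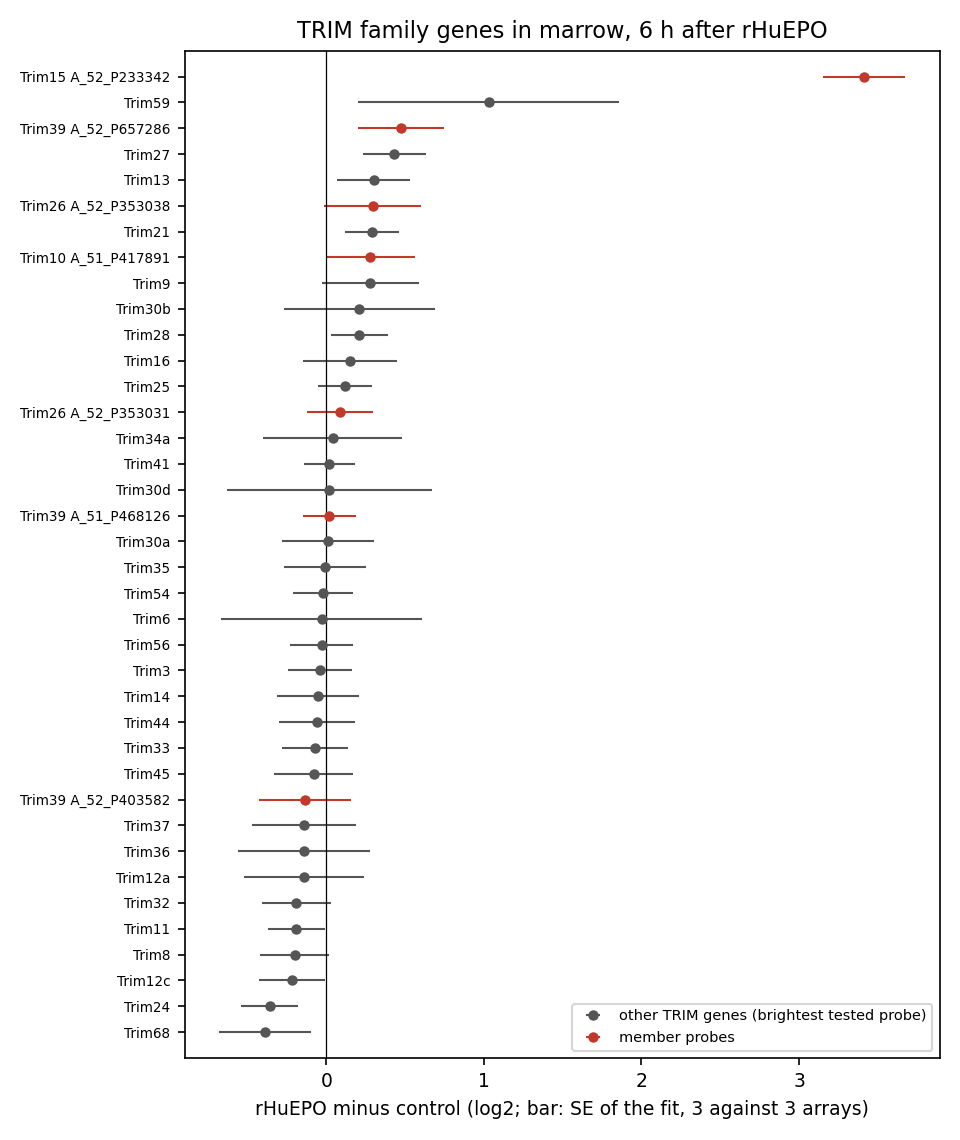
Difference between rHuEPO and control (log2, point) with the SE of the fit (bar; 3 against 3 arrays) for 31 other TRIM genes, brightest tested probe each, in grey and the 7 tested probes of Trim15, Trim10, Trim26 and Trim39 in red. Trim15 at 3.41 lies above all others plotted, of which the next, Trim59, is at 1.03 with an SE of 0.83.

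Trim10 was set beside the erythroid genes it is known to be expressed with. Of 22 such genes 20 were tested, and 0 were called by limma (0.0803% of all tested genes were). Their median difference was 0.337, beside 0.006 for all genes, and 15 of 20 were above 0 (51.2% of all genes were). In 6 of the 20 every rHuEPO array stood above every control, a larger share than the 5.86% of all genes. The median was 0.15 without PBS replicate 1 and 0.48 without PBS replicate 2. The smallest p belonged to Sptb, red cell beta spectrin, at 1.24 ± 0.22 (limma adjusted p = 0.336), Tfrc, the transferrin receptor, at 0.97 ± 0.20 (0.534), and Add2, beta adducin of the membrane skeleton, at 0.94 ± 0.22 (0.658). Sptb read 1.57 untreated, 1.22 and 1.51 with PBS, and 2.99, 2.40 and 2.60 with rHuEPO.

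By array, the mean over the 20 erythroid genes was 3.93 untreated, 3.55 and 4.13 with PBS, and 4.35, 4.09 and 4.28 with rHuEPO. Trim10 stood at 3.83 untreated, 3.08 and 3.88 with PBS, and 4.25, 3.68 and 3.72 with rHuEPO on the same scale. PBS replicate 1 was lowest and rHuEPO replicate 1 highest in both. Between these extremes the order of the arrays differed. For example, rHuEPO replicate 3 stood above the untreated array in the erythroid mean (4.28 against 3.93) and below it in Trim10 (3.72 against 3.83). The correlation with the erythroid mean was 0.87 for Trim10, 0.69 for Trim15 and -0.08 to 0.7 for the Trim26 and Trim39 probes. These values are a description, and that of Trim15 rests in part on control readings not well above background. The part of the erythroid mean in the differences of Trim10 and Trim15 was not tested.

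**Figure D5:**
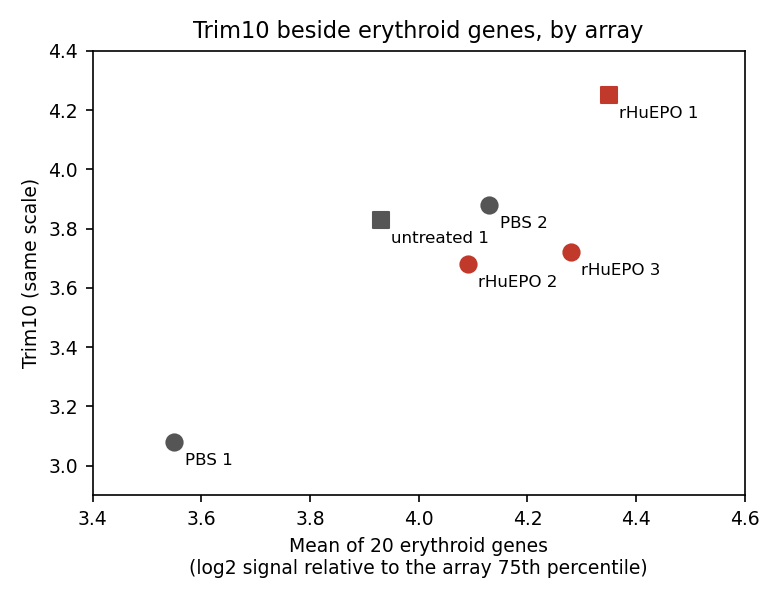
Trim10 (vertical axis) against the mean of 20 erythroid genes (horizontal axis), both as log2 signal relative to the array's 75th percentile, 1 point per array, with squares for slide 1, circles for slide 2, grey for control and red for rHuEPO. PBS replicate 1 is lowest on both axes (3.55 and 3.08) and rHuEPO replicate 1 highest on both (4.35 and 4.25).

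The early targets of erythropoietin and STAT5 were read beside Trim15, although that list was chosen with results of these samples known and is no independent evidence. All 14 were tested, and 3 passed, all higher, where 0.0803% of all genes passed. The median was 0.473, beside 0.006 for all genes. Erfe read -5.69 untreated, -5.77 and -5.97 with PBS, none well above background, and 0.91, 0.58 and 0.98 with rHuEPO. It entered the fit through its rHuEPO arrays alone, so its call is no test, and only the bound of at least 24.1-fold holds. Cish, the STAT5-induced inhibitor of cytokine signalling, rose by 4.16 ± 0.30 (limma adjusted p = 0.0116), and Plek2, a pleckstrin gene of erythroblasts, rose by 2.65 ± 0.23 (limma adjusted p = 0.0213). Without PBS replicate 1, or without rHuEPO replicate 2 or 3, Erfe alone of the listed genes was called.

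The genes whose readings over the 6 arrays were most like those of Trim15 were Xpnpep1, an aminopeptidase (Pearson r = 0.995), Pus10, a pseudouridine synthase (0.9936), Tgtp1, an interferon-induced GTPase (0.9883), Erfe (0.9859) and Isg15, the interferon-induced ubiquitin-like protein (0.9841). Their differences between the arms ran from 0.19 for Pus10 and 0.28 for Xpnpep1 to 1.82 for Isg15, 1.97 for Tgtp1 and, at face value, 6.63 for Erfe. Neither Trim15 nor Erfe was well above background on any control array. The r values of Trim15 and their order therefore rest in part on levels that were not measured. A gene with the same split between the arms has a high r whatever its size, and 124 of 11207 genes (1.11%) were over 0.9. For Trim10 the nearest were Ell2, an elongation factor of RNA polymerase II (0.9973), Zw10, a kinetochore protein (0.9884), Ccdc25 (0.988), Gtf2h3, a subunit of the general factor TFIIH (0.9842), and Slc22a23 (0.9822). All 5 differed by 0.14 to 0.27 between the arms, and 167 genes (1.49%) had an r over 0.9. The 2 sets of 5 shared no gene. Each r is over 6 arrays that share their scaling and slides, is a description, and carries no p.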

How the data were processed

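Cy3-labelled total RNA was hybridised to one-colour Agilent arrays, per the labels' protocols. The scanner files, as deposited, give spot intensity values. Their processed signal is already background-subtracted by Feature Extraction 10.7.3.1, as stated per the file headers. The value table, as deposited, holds log2 values. It matched the scanner files after scaling to the 75th percentile and subtracting the median of every probe (slopes 0.9988 to 1.0007), so its direction is settled. Its column medians were -0.104, -0.0571, -0.0978, 0.117, 0.0112 and 0.0868 for untreated, PBS 1 and 2 and rHuEPO 1 to 3.

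Levels were computed from the scanner files as log2 of processed signal over the 75th percentile of its array. Control spots (1639) and 17 probes without a value on some array were left out, and no spot was saturated. Accessions without versions were matched to RefSeq symbols (GRCm38.p6), which named 26690 of 41174 probes (64.8%). The array design uses another build, so the only coordinates given are those of the RefSeq sequences.

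Fits used limma 3.58.1 in R 4.3.3 (lmFit, eBayes, two-sided, Benjamini-Hochberg over 19590 probes, threshold 0.05) and were tested on simulated data. In a bound, each dim array contributes its lowest well-above-background value, or the reading of the probe where that is higher. A gene in a list is its brightest tested probe. Named genes are all probes of the set, the called genes of each list or else the 3 with the smallest p, and the 5 most alike. Other genes were named after their values were seen. The set and the lists were chosen with earlier results of these data known. Alternatives were quantile and median scaling, normexp with an offset of 50 on median signals, no filter or one on all 6 arrays, the value table in place of scanner files, PBS alone as control, a block for slide, a block for replicate number, array weights, an intensity trend with a robust prior, and leaving out each array. Normexp could not be fitted on PBS replicate 2 until 11 spots with a local background over 10 times the median were left out, a step chosen after seeing the data. Correlations between arrays were 0.96 to 0.9911, which does not show whether they come from separate animals. Each array was counted as 1 sample. Some results are not reported here.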

Additional observations from a re-analysis of the deposited data

How the results depend on the processing

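Trim15 read higher after rHuEPO under all 16 alternatives that could be run on its probe, with differences of 3.27 to 3.65 except for normexp, at 0.63. Its listing among the calls, which is no test of it, held in 9 of the 16 and not with normexp, no filter, the replicate block, or without PBS replicate 1 or 2 or rHuEPO replicate 2 or 3. A filter on all 6 arrays removes its probe. PBS alone as control and leaving out the untreated array are the same comparison, and the counts of 16 and 9 include it under both names. Leaving out each array gave 3.29 to 3.63. The 11 calls over all probes became 4 with normexp, 4 with the filter on all 6 arrays, 4 against PBS alone, 2 with no filter, 26 (24 higher) with array weights, and 2 to 7 without each array. Same-numbered PBS and rHuEPO arrays had correlations of deviations of -0.04 and -0.12. With only 2 PBS arrays, pairs of unlike number mirror these values (0.04 and 0.12). The values therefore cannot decide whether same-numbered arrays were paired. With the replicate block 1 probe was called, the lists kept 1 call of 3, and the Trim15 difference was 3.27. The lists also had 1 call with no filter and 1 to 2 without each array. The count of TRIM probes past the slide test, 1, was 0 with quantile scaling, median scaling, normexp or no filter, and 0 to 1 without each array. Without rHuEPO replicate 2 or 3 only 4 and 5 of all probes passed the slide test. Without PBS replicate 2 Trim10 passed it (-0.64, limma adjusted p = 0.0453).

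Signs that turned belonged to differences that passed in no setting. Untreated minus PBS ran, without each array, from -0.052 to 0.749 for Trim10, from -0.48 to 0.148 for Trim26 A_52_P353031 and from -0.072 to 0.178 for Trim39 A_51_P468126. It also turned for that Trim26 probe with quantile scaling (0.026) and for that Trim39 probe with median scaling (-0.092) and normexp (-0.129). Slide 2 minus slide 1 ran, without each array, from -0.558 to 0.645 for Trim15, from -0.024 to 0.245 for Trim26 A_52_P353031 and from -0.053 to 0.089 for Trim39 A_51_P468126, and was -0.029 for that Trim26 probe with quantile scaling. Except where stated, the cause was not tested. The lone array left in an arm was assumed to vary like the others. The median of all probes moved from -0.014 to between -0.044 and 0.092.

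What limits these values is the number of arrays and, for Trim15, the signal over background on the controls. Trim58 and 2 flanking TRIM genes have no value, and dim genes have no direction.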

Other observations

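Genes of the known partners of Trim58 and Trim15 were read as lists. Of 19 dynein and dynactin genes, which build the motor that Trim58 acts on, 17 were tested. By limma 0 were called (0.0803% of all tested genes were), 10 were above 0 and the median difference between rHuEPO and control was 0.023. The smallest p belonged to Dync1li2, a light intermediate chain of dynein, at -0.23 ± 0.18 (SE, 3 against 3 arrays), and to the dynactin subunits Dctn4 at 0.21 ± 0.19 and Dctn6 at 0.20 ± 0.19. All 3 had overlapping arms.

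Of 16 focal adhesion genes, the structures where Trim15 protein is known to sit, 14 were tested, 0 were called (0.0803% of all genes were), 8 were above 0 (51.2% of all genes were) and the median was 0.035, beside 0.006 for all genes. Bcar1, an adaptor of integrin signalling, read -2.13 untreated, -3.36 and -2.68 with PBS, and -2.52, -1.86 and -1.79 with rHuEPO, a difference of 0.67 ± 0.35. Parvb, which links integrins to actin, was at -0.36 ± 0.26 and Vcl, vinculin, at -0.31 ± 0.27. None of the 3 passed, and their arms overlapped. At an unadjusted p under 0.05 the fit listed 886 of 19590 probes (4.52%).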
